A study of Mus musculus with 9 samples.

Results

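The genotype difference in the response of the mouse kidney to ureteral obstruction was taken from all 9 arrays of the series, as the log2 change with obstruction in Notch3-/- kidneys minus the log2 change in wild-type kidneys. The comparison was set by the sample labels, and the brightest probe of each gene that passed the filter on signal entered it, which gave 23878 genes and unnamed transcripts. Unilateral ureteral obstruction (UUO) ties off 1 ureter, here for 5 days, and leaves the kidney behind it inflamed, dedifferentiated and fibrotic. The 4 groups were healthy wild-type kidneys (2 arrays), wild-type UUO kidneys (2 arrays), healthy Notch3-/- kidneys (2 arrays) and Notch3-/- UUO kidneys (3 arrays), all from cortex RNA of mice aged 12 to 16 weeks. The healthy kidneys were the unligated contralateral ones, per the design text, so they came from operated animals. The deleted stretch of the gene, the strain background and the animal behind each array were not given in the sources used here, and if the arrays of a group did not come from separate animals, the p-values measure only a technical spread.

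Notch3 is a cell-surface receptor that is cut when a ligand on a neighbouring cell binds it, and its freed intracellular part then acts in the nucleus on genes such as those of the Hes and Hey families. In the kidney it is best known from vascular smooth muscle cells and pericytes, and it is also reported in injured tubules. Obstruction is known to bring tubular cell death and cell division, an influx of macrophages and T cells, and collagen deposition by myofibroblasts.

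Levels are log2 signals relative to the 75th percentile of their array, a response is the UUO level minus the healthy level, and a difference of responses is the Notch3-/- response minus the wild-type response, given ± SE from the limma fit to all 9 arrays. A difference below 0 means that a gene rose less, or fell more, with obstruction in Notch3-/- than in wild-type kidneys. Since cortex is a mixture of cells, fewer cells of a type and less RNA per cell cannot be told apart. Each response lies within 1 scan campaign, because all wild-type arrays were scanned in one campaign and all Notch3-/- arrays in another, so a shift of a whole campaign drops out of the difference of responses. For the same reason genotype and campaign cannot be told apart where healthy kidneys, or UUO kidneys, are compared between genotypes. No slide held all 4 groups. Both wild-type UUO arrays shared 1 slide, scanned on day 2, and the healthy wild-type arrays lay on 2 others, scanned on days 1 and 3. All Notch3-/- arrays were scanned on day 4. Slide, scan day and obstruction therefore cannot be told apart in the wild-type response, and a shift between these days does not drop out of the difference of responses.

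The targeted gene followed the labels. Notch3 lay at -0.26 and -0.50 in healthy and 0.92 and 0.68 in UUO wild-type kidneys, against -4.98 and -5.39 in healthy and -4.30, -3.74 and -3.63 in UUO Notch3-/- kidneys. Wild-type signal was thus 28.0-fold higher in healthy and 25.7-fold higher in UUO kidneys, and the remaining signal was still well above background. Kidney markers were present on every array: Umod, the main protein of urine, lay between 6.42 and 7.87, and the proximal tubule endocytosis receptor Lrp2 between 3.93 and 6.46.

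Replicates 2 and 3 of the Notch3-/- UUO group stood apart from the other 7 arrays. Xist, the RNA that silences 1 X chromosome in females, lay at 0.18 and -0.00 on them and between -8.64 and -5.71 elsewhere, while the Y-linked Ddx3y lay at -3.80 and -3.67 on them and between -0.26 and 0.42 elsewhere. These levels go against the design text, which describes the mice as matched by gender. The adrenal steroid genes Star and Cyp11a1 lay at 3.62 and 3.83 and at 2.70 and 3.17 on these arrays, against at most -3.84 and -5.88 on the others, and the summed level of the 15 adrenal cortex markers (log2 of the sum) was 8.14 and 8.44 against 4.24 to 5.06. Adipocyte markers varied between arrays of one group as well: Adipoq was at -8.04 and 1.71 in the healthy Notch3-/- kidneys and at -6.26, 0.12 and 0.96 in the Notch3-/- UUO kidneys. On replicate 1 of the Notch3-/- UUO group, distal tubule genes had stayed closer to healthy levels: Egf, a growth factor made in the distal convoluted tubule, was at 3.26 there and at -0.36 and 0.28 on replicates 2 and 3, with 4.58 to 4.64 in all healthy kidneys. Beside the gene lists, the median without both arrays of high Xist is therefore given, which leaves replicate 1 as the only Notch3-/- UUO array.

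**Figure D1:**
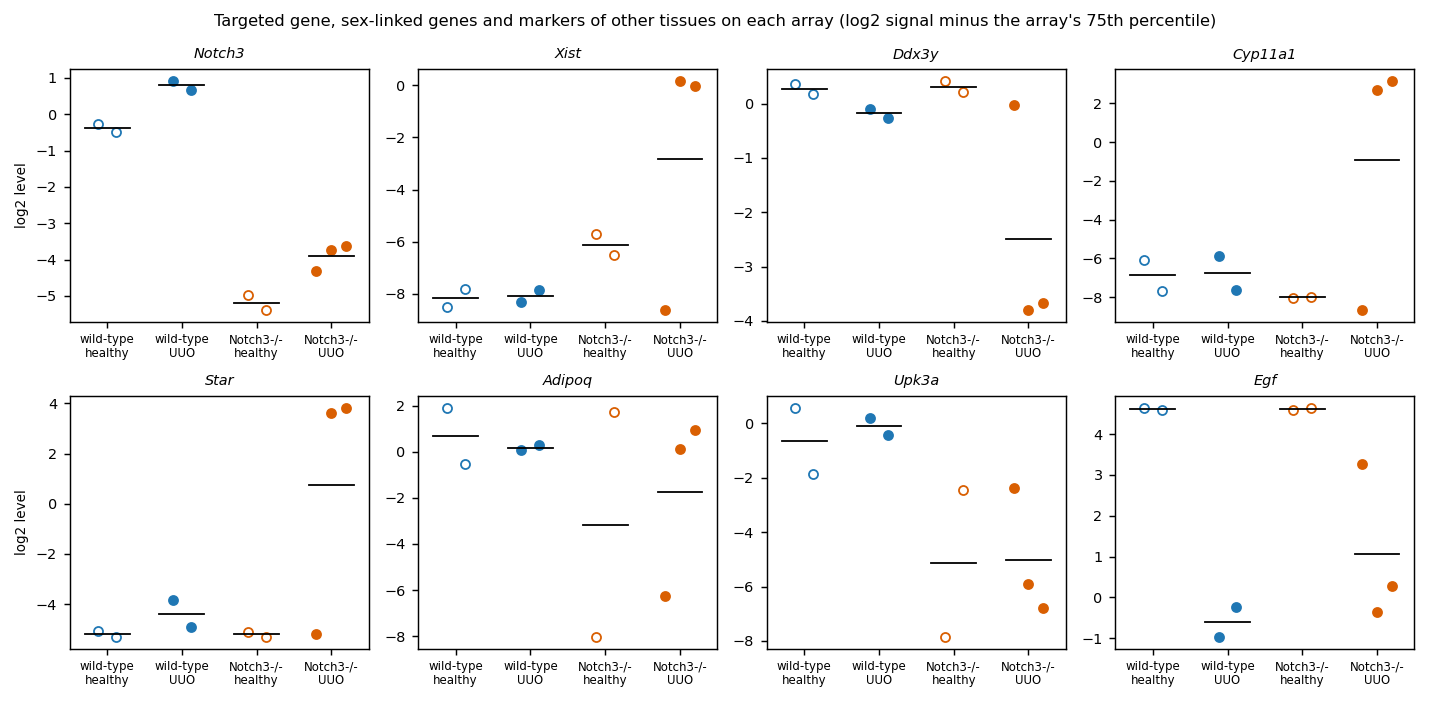
Levels of the targeted gene, 2 sex-linked genes, 2 adrenal genes, an adipocyte gene, a urothelial gene and Egf on each array (y axis, log2 signal minus the array's 75th percentile; x axis, the 4 groups; open points healthy, filled points UUO, black lines group means). Notch3 separates the genotypes, and within the Notch3-/- UUO group Xist, Ddx3y, Cyp11a1 and Star set 2 arrays apart from the first.

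Across the whole array no single difference of responses passed the threshold. At an adjusted p under 0.05, limma called 0 of 23878 genes (0% higher, 0% lower), and the smallest adjusted p was 0.162. At an unadjusted p under 0.05 there were 1705 genes, of which 705 (2.95% of all) were higher and 1000 (4.19%) were lower in the Notch3-/- response. The median SE of a difference was 0.33, so that for a typical gene a log2 difference of 0.78 would be needed to reach even the unadjusted threshold. Each response on its own gave many calls: 3373 genes rose (14.1%) and 2806 fell (11.8%) with obstruction in wild-type kidneys, and 3171 rose (13.3%) and 3322 fell (13.9%) in Notch3-/- kidneys. Direct comparison of the genotypes called 57 higher (0.239%) and 65 lower genes (0.272%) in healthy Notch3-/- kidneys, and 19 higher (0.0796%) and 52 lower (0.218%) in Notch3-/- UUO kidneys. Leaving out Notch3-/- UUO replicate 1 gave 54 calls, 44 higher and 10 lower, among them Star at 8.10, Akr1b7 at 4.92 and Chga at 9.43, which mark the adrenal gland, and Ddx3y at -3.61. Leaving out healthy Notch3-/- replicate 1 gave 3 calls, among them Ifng at 3.44.

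Of the 1705 genes past the unadjusted threshold, 1068 (62.6%) had a larger genotype difference in healthy than in UUO kidneys, compared with 53.4% of all genes. Both genotype differences enter the contrast that chose these genes, so this share is not independent of that choice. A median difference of responses of -0.07 over all genes, with 57.2% below 0 and 42.8% above, is the background against which the gene lists are given. The pairwise responses of both genotypes (each UUO array against each healthy array) did not overlap for 10.3% of all genes in the lower and 5.72% in the higher direction.

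**Figure D2:**
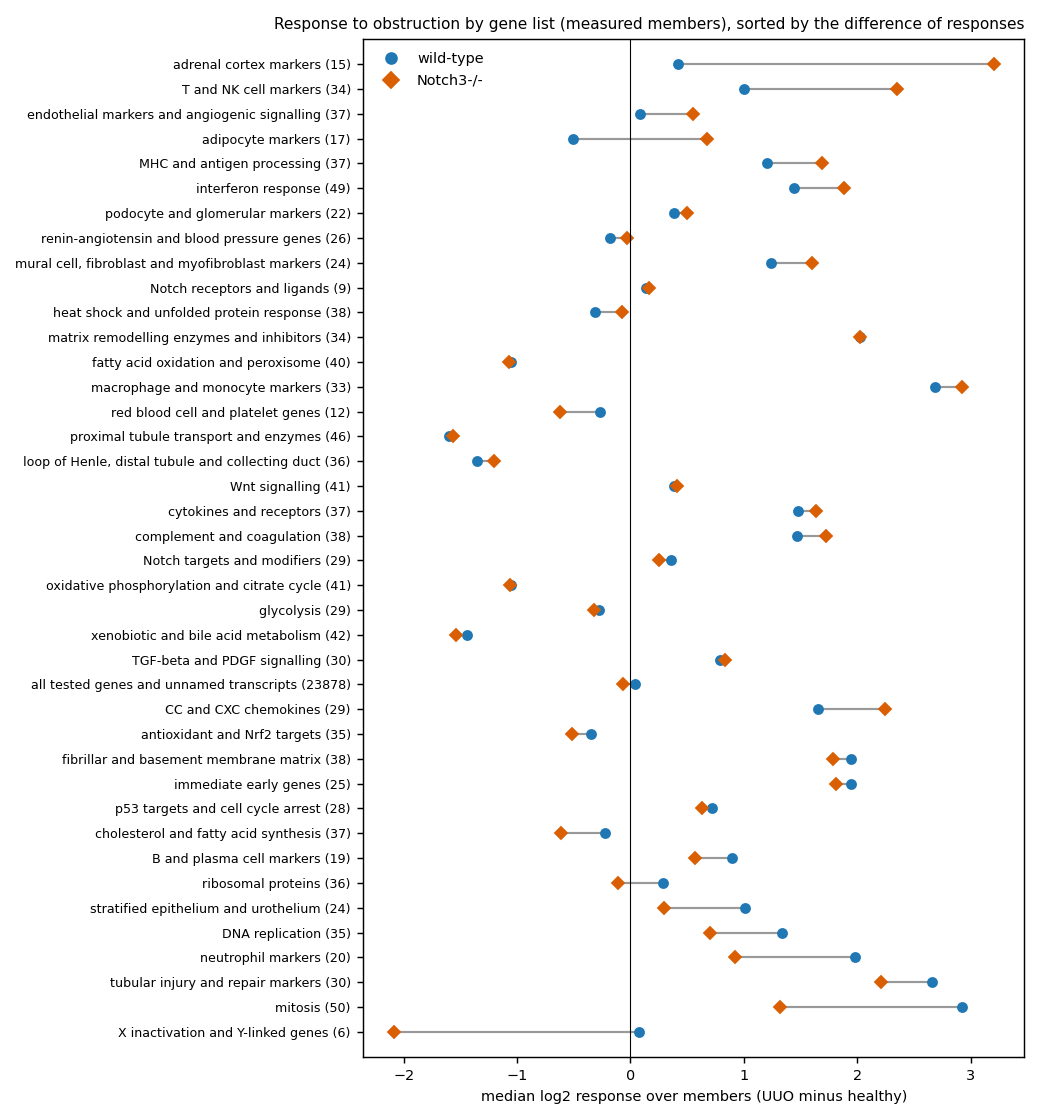
Median log2 response to obstruction over the measured members of each gene list (x axis) in wild-type (blue circles) and Notch3-/- kidneys (orange diamonds), sorted by the median difference of responses (number of measured members in brackets). The widest gaps apart from the adrenal and sex-linked lists are at mitosis, where the median was 2.93 in wild-type and 1.32 in Notch3-/- kidneys, and at T and NK cell markers, where it was 1.0 and 2.35.

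Genes of mitosis rose in both genotypes, but by less in Notch3-/- kidneys. By level the genotypes differed in healthy and not in UUO kidneys, but genotype and scan campaign cannot be told apart in either state. All 50 measured of 53 listed members had a difference of responses below 0 (57.2% of all genes), with a median of -1.68. At the unadjusted threshold 37 of them were lower (4.19% of all genes), although none passed after adjustment (smallest adjusted p 0.24 in limma). In wild-type kidneys 44 of the 50 rose (14.1% of all genes) and in Notch3-/- kidneys 31 did (13.3%). In healthy kidneys every one of the 50 was higher in Notch3-/- (55.5% of all genes were), with a median of 1.58. Of these 9 were called higher (0.239% of all genes) and 42 had both Notch3-/- arrays above both wild-type arrays (27.8%). In UUO kidneys the median genotype difference was 0.00, with 26 members above and 24 below 0 and none called. The median member, set against its mean in healthy wild-type kidneys, lay at 1.25 and 2.03 in the 2 healthy Notch3-/- kidneys, at 3.14 and 2.73 in the wild-type UUO kidneys and at 2.79, 3.31 and 2.98 in the Notch3-/- UUO kidneys. Healthy Notch3-/- kidneys thus lay between the healthy wild-type and the obstructed kidneys, without overlap.

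Among its members, Mki67, the proliferation antigen Ki-67, was at -2.39 and -2.53 in healthy and 1.68 and 1.38 in UUO wild-type kidneys, and at -0.38 and 0.38 in healthy and 1.12, 2.0 and 1.5 in UUO Notch3-/- kidneys. The 5 UUO arrays overlapped between genotypes and the 4 healthy arrays did not. Mki67 rose 15.9-fold in wild-type and 2.90-fold in Notch3-/- kidneys, a difference of -2.45 ± 0.47 (adjusted p = 0.36 in limma). Ccnb1, the cyclin that drives entry into mitosis, was at -4.83 and -5.24 in healthy and -0.52 and -1.03 in UUO wild-type kidneys, and at -2.31 and -1.75 in healthy and -0.97, -0.39 and -0.81 in UUO Notch3-/- kidneys. It showed the same order of groups, with a rise of 19.2-fold in wild-type and 2.47-fold in Notch3-/- kidneys and a difference of -2.95 ± 0.41 (adjusted p = 0.26 in limma). Cdc20, which activates the complex that ends metaphase, had a wild-type response of 3.27 and a Notch3-/- response of 0.79, and Aurka, a spindle pole kinase, had 3.24 and 1.17. For Melk and Kif4, at -3.86 ± 0.52 and -3.41 ± 0.50, the healthy wild-type signal was not well above background, so only bounds hold: Melk rose at least 14.6-fold and Kif4 at least 5.83-fold in wild-type kidneys. The 33 members that were well above background on all 9 arrays all lay below 0, with a median of -1.49, and without both arrays of high Xist the median of the list was -1.99 with 49 of 50 below 0. Background correction and the authors' own values gave smaller sizes in the same direction, -0.98 and -1.08.

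The promoters of mitotic genes share short elements that are known to time their expression, the CCAAT box bound by NF-Y and the cell cycle homology region (CHR). Windows of 250 bases before the transcription start were read from RefSeq (GRCm38.p6), which matched 41 of the 50 measured members, and were searched on both strands for the CCAAT box and for the CHR, taken as the letters TTTGAA. Such boxes (CCAAT) were found in 29 of the 41 (70.7%), compared with 34.5% of 27018 genes in the table. The CHR letters were found in 14 (34.1% against 16.3%), and both in 12 (29.3% against 5.73%). MHC and antigen processing genes, with a median difference of responses of 0.42, held the CCAAT box almost as often (18 of 26, 69.2%). DNA replication genes held it in 17 of 30 (56.7%) and the CHR letters in 4 of 30 (13.3%). The CCAAT box was thus not particular to genes with lower Notch3-/- responses. The windows of the 3 members with the smallest p among those above background on every array are shown with matches in capitals, because they lie side by side with the lower Notch3-/- responses of Ccnb1, Cdc20 and Ccnb2 (-2.95, -2.49 and -2.08). All run 5′ to 3′ on the minus strand: Ccnb1 at chr13:100786487-100786736, Cdc20 at chr4:118437344-118437593 and Ccnb2 at chr9:70421555-70421804.
Ccnb1: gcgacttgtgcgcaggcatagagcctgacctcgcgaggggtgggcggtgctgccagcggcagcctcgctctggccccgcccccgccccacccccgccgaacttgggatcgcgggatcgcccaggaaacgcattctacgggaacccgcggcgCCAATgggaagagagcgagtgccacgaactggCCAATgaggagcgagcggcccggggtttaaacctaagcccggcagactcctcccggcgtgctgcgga
Cdc20: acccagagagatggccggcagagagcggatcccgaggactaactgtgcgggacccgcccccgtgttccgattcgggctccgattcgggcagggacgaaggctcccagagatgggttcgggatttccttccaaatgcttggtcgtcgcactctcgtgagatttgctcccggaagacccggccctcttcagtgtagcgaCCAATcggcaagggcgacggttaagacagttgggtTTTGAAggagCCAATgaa
Ccnb2: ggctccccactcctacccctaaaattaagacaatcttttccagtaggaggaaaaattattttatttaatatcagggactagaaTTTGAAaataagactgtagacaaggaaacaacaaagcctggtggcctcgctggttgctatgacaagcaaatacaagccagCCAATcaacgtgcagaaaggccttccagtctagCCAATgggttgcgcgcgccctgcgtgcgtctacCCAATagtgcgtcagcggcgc
Ccnb1 held 2 CCAAT boxes and no CHR letters in this window, Cdc20 held 2 and 1, and Ccnb2 held 3 and 1. A match describes the letters only, and no binding was measured.

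DNA replication genes also had mostly lower Notch3-/- responses, at smaller size. Of 35 measured members 32 had a difference below 0, with a median of -0.53. At the unadjusted threshold 13 were lower (4.19% of all genes), with a smallest adjusted p of 0.28 in limma. In wild-type kidneys 30 rose (14.1% of all genes), against 16 in Notch3-/- kidneys (13.3%). Uhrf1, which keeps DNA methylation through replication, was at -2.81 and -2.89 in healthy and 1.0 and 0.85 in UUO wild-type kidneys, and at -1.10 and -0.56 in healthy and 0.58, 1.16 and 1.02 in UUO Notch3-/- kidneys. Only the healthy arrays separated the genotypes, and the difference of responses was -2.03 ± 0.34, while the other Uhrf1 probe gave -0.89. The replication licensing genes Mcm5 and Cdt1 had differences of -1.40 ± 0.28 and -1.07 ± 0.19, with adjusted p from 0.33 to 0.38 in limma. In healthy kidneys 23 of the 35 members had both Notch3-/- arrays above both wild-type arrays (27.8% of all genes), and Uhrf1 differed there by 2.02. In UUO kidneys 12 of the 35 (0 of 50 on the mitosis list) had both wild-type UUO arrays above all 3 Notch3-/- UUO arrays (22.9% of all genes), and 2 had the reverse. The 36 ribosomal protein genes all lay below 0 too, with a small median of -0.36 and 14 lower at the unadjusted threshold (4.19% of all genes). In healthy kidneys 33 of them had both Notch3-/- arrays above both wild-type arrays (27.8% of all genes). Rps20 had a wild-type response of 0.44 and a Notch3-/- response of -0.11. Such genes have many near-identical copies whose signals an array probe may mix, and the difference of Rps14, -0.46 ± 0.15, changed sign under quantile normalization and in the authors' values (0.03 and 0.10). With those 2 arrays of high Xist left out, the medians were -0.77 for replication and -0.35 for ribosomal proteins. Among genes of p53 targets and cell cycle arrest, 20 of 28 lay below 0 with a median of -0.21 (-0.47 without the arrays of high Xist), and the arrest gene Cdkn1a had responses of 2.36 in wild-type and 1.44 in Notch3-/- kidneys.

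**Figure D3:**
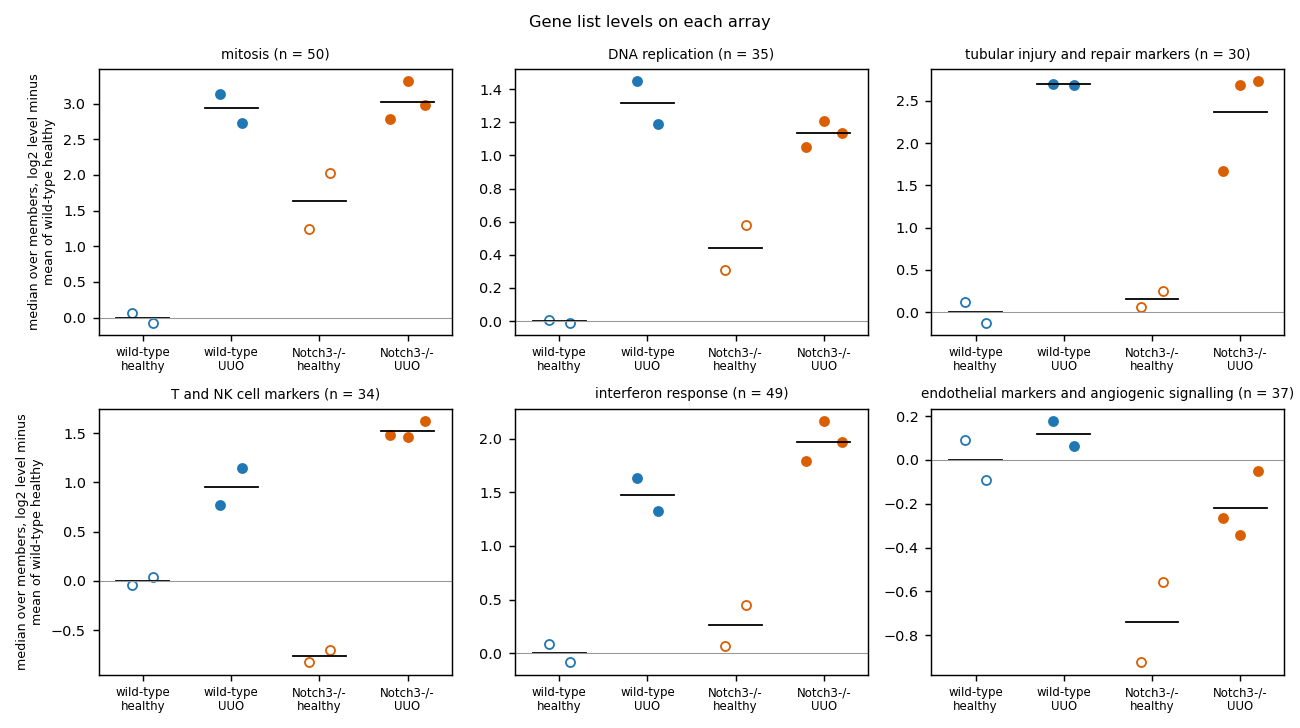
Median level of 6 gene lists on each array, each gene set against its mean in healthy wild-type kidneys (y axis, log2; x axis, the 4 groups; open points healthy, filled points UUO, black lines group means). For mitosis the healthy Notch3-/- arrays lie at 1.25 and 2.03 while all UUO arrays lie between 2.73 and 3.31, and for T and NK cell markers the healthy Notch3-/- arrays lie at -0.83 and -0.70 and their UUO arrays between 1.46 and 1.62.

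Markers of T and NK cells went the other way. Of 34 measured of 39 listed members, 30 had a difference of responses above 0 (42.8% of all genes), with a median of 1.18. At the unadjusted threshold 19 were higher (2.95% of all genes), while none passed after adjustment (smallest adjusted p 0.22). Pairwise responses did not overlap for 20 (5.72% of all genes in the higher and 10.3% in the lower direction). With obstruction 17 rose in wild-type (14.1% of all genes) and 26 in Notch3-/- kidneys (13.3%). By level the genotypes differed in both states, though genotype and scan campaign cannot be told apart in either. In healthy kidneys 23 of the 34 had both wild-type arrays above both Notch3-/- arrays (17.4% of all genes), with a median of -0.69. In UUO kidneys 19 had all 3 Notch3-/- arrays above both wild-type arrays (20.7% of all genes), with a median of 0.34. Without both arrays of high Xist the median was 1.12, with 26 of 34 above 0. In the authors' values it was 0.75, and after normexp background correction 0.19 with 22 of 34 above 0.

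Cd3d, a subunit of the T cell receptor complex, was at -3.15 and -3.02 in healthy and -2.12 and -1.47 in UUO wild-type kidneys, and at -4.86 and -4.07 in healthy and -1.31, -1.30 and -0.93 in UUO Notch3-/- kidneys. Notch3-/- arrays were the lowest of the healthy and the highest of the UUO kidneys. The summed level of all 34 markers (log2 of the sum), which the most abundant ones set, did not have this order: it was 2.93 and 3.48 in healthy and 4.29 and 4.21 in UUO wild-type kidneys, and 2.84 and 2.77 in healthy and 3.88, 4.07 and 4.18 in UUO Notch3-/- kidneys. Cd3d rose 2.44-fold in wild-type and 9.75-fold in Notch3-/- kidneys, and its sister subunit Cd3g had responses of 0.84 and 2.57. Cd3e, the third subunit on the list, did not follow, with a difference of -0.25 and levels between -0.87 and 0.35 on all arrays. Ifng, which encodes interferon gamma, was at -5.30 and -5.39 in healthy and -5.59 and -5.55 in UUO wild-type kidneys, and at -6.29 and -7.20 in healthy and -3.83, -4.11 and -4.0 in UUO Notch3-/- kidneys. It was well above background on every array of the last group only, where it rose at least 4.17-fold over healthy kidneys, and the fitted difference of 2.99 ± 0.38 (adjusted p = 0.22 in limma) rests on signals near background in the other groups, so its size is uncertain. Cxcr6, a chemokine receptor of effector T and NK cells, had responses of -0.16 in wild-type and 1.61 in Notch3-/- kidneys and a difference of 1.77 ± 0.27. The signalling kinase gene Zap70 gave 1.25 ± 0.23, the transcription factor Tbx21 gave 1.23, and the interleukin receptor chain Il2rb gave 2.02. The chemokine Xcl1, made by such cells, had responses of 0.54 and 2.25, and Cxcl9, a chemokine induced by interferon gamma that attracts T cells, had 1.36 and 3.32.

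Genes of antigen presentation and of the interferon response leaned in the same direction. Of 37 MHC and antigen processing genes 32 lay above 0, with a median of 0.42 and 9 higher at the unadjusted threshold (2.95% of all genes). With obstruction 28 of them rose in wild-type (14.1% of all genes) and 34 in Notch3-/- kidneys (13.3%). H2-K1, a classical class I heavy chain, was at 4.61 and 4.43 in healthy and 5.52 and 5.75 in UUO wild-type kidneys, and at 4.26 and 4.75 in healthy and 6.40, 6.48 and 6.32 in UUO Notch3-/- kidneys. Its healthy arrays overlapped between genotypes, and its 3 Notch3-/- UUO arrays lay above both wild-type UUO arrays. The heavy chain genes are near copies of each other, so probes may share signal. Of 49 interferon response genes 39 lay above 0, with a median of 0.39 and 7 higher at the unadjusted threshold (2.95% of all genes). With obstruction 37 of them rose in wild-type (14.1% of all genes) and 46 in Notch3-/- kidneys (13.3%). All 49 were higher in Notch3-/- than in wild-type UUO kidneys by their means (49.5% of all genes were), with a median of 0.63. For 36 every Notch3-/- UUO array lay above every wild-type UUO array (20.7% of all genes), and 1 was called (0.0796%). In healthy kidneys the median was already 0.28, with 33 above 0. Rsad2, the antiviral protein viperin, was at 0.25 and 0.16 in healthy and 0.22 and 0.07 in UUO wild-type kidneys, and at -0.87 and -0.48 in healthy and 0.38, 0.90 and 0.89 in UUO Notch3-/- kidneys. It rose in Notch3-/- kidneys by 1.40 and had a wild-type response of -0.06, a difference of 1.46 ± 0.31. Ifi44 and Cmpk2 gave 1.15 ± 0.23 and 1.05 ± 0.27. With replicate 1 as the only Notch3-/- UUO array, the medians were 0.30 for MHC and 0.24 for interferon response genes.

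An interferon-stimulated response element, searched as TTTCNNTTTC on both strands in the 250 bases before the start, was found in 20 of the 38 matched interferon response genes (52.6%), against 3.04% of all genes in the table and 2 of 26 MHC and antigen processing genes (7.69%). The window of Rsad2, at chr12:26456453-26456702 on the minus strand, is shown as an example of a match, in capitals, before a gene that rose in Notch3-/- kidneys. The window of Ifi44 held no match.
Rsad2: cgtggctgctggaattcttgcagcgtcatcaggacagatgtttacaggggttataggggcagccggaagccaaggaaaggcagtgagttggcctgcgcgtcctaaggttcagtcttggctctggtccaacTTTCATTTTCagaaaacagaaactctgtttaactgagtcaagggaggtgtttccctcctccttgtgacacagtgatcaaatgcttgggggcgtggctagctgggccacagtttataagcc

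Tubular injury genes rose in both genotypes, and the size of their difference depended on Notch3-/- UUO replicate 1. Of 30 members 25 had a difference below 0, with a median of -0.66. At the unadjusted threshold 9 were lower (4.19% of all genes), with a smallest adjusted p of 0.27 in limma. With obstruction 26 rose in wild-type (14.1% of all genes) and 23 in Notch3-/- kidneys (13.3%). Havcr1, the injury marker KIM-1 of proximal tubules, was at -5.85 and -5.79 in healthy and 3.93 and 4.13 in UUO wild-type kidneys, and at -3.50 and -4.12 in healthy and 2.64, 3.27 and 3.61 in UUO Notch3-/- kidneys. The Notch3-/- arrays were higher before and lower after obstruction without overlap, and Havcr1 rose 922-fold in wild-type and 126-fold in Notch3-/- kidneys, a difference of -2.87 ± 0.46 (adjusted p = 0.27 in limma). Only 1 of 2 healthy wild-type arrays had a clear signal over background for Havcr1, and the same held for Sox9, so folds from there are less certain. Sox9, a transcription factor of repairing tubules, differed after obstruction alone: it was at -0.62 and -0.38 in wild-type and at -1.64, -1.46 and -1.64 in Notch3-/- UUO kidneys, with -5.97 to -5.69 in all healthy kidneys, and a difference of -1.06 ± 0.22. Gdf15, a stress cytokine, and Lcn2, the injury marker NGAL, gave -2.08 ± 0.52 and -1.75 ± 0.68, and both had higher healthy levels in Notch3-/- kidneys, by 1.95 and 1.55. On Notch3-/- UUO replicate 1 the median injury gene lay 1.67 above its healthy wild-type mean, compared with 2.69 and 2.73 on replicates 2 and 3 and 2.70 and 2.69 on the wild-type UUO arrays. With replicate 1 as the only Notch3-/- UUO array the median of the list was -1.08, and without replicate 1 it was -0.42.

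Keratins and other genes of stratified epithelium and urothelium had a median difference of -0.44, with 17 of 24 below 0. In UUO kidneys 16 had both wild-type arrays above all 3 Notch3-/- arrays (22.9% of all genes). In healthy kidneys 9 had both wild-type arrays above both Notch3-/- arrays (17.4% of all genes). Genotype and scan campaign cannot be told apart in either state. Krt14, a keratin of basal epithelial cells, was at -4.30 and -4.95 in healthy and -2.05 and -1.75 in UUO wild-type kidneys, and at -5.14 and -5.36 in healthy and -4.60, -4.48 and -4.60 in UUO Notch3-/- kidneys. It rose 6.62-fold in wild-type and 1.61-fold in Notch3-/- kidneys, a difference of -2.04 ± 0.32 (adjusted p = 0.26 in limma). All 3 Notch3-/- UUO arrays lay above both healthy Notch3-/- arrays, though within the range of the 4 healthy arrays. Urothelial Upk genes varied between arrays of one group, Upk3a for example from -7.86 to -2.44 in healthy and from -6.80 to -2.39 in UUO Notch3-/- kidneys, and their part in the keratin result was not tested. Among neutrophil markers 17 of 20 lay below 0 (median -0.66), but only 7 were well above background on all 9 arrays. S100a9, an abundant neutrophil protein, had responses of 2.40 in wild-type and 1.22 in Notch3-/- kidneys. Its difference was -1.18 ± 0.69, its pairwise responses overlapped, and its healthy level was higher in Notch3-/- kidneys by 1.61. Without both arrays of high Xist the medians were -0.05 for the epithelial list and -0.43 for neutrophil markers.

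**Figure D4:**
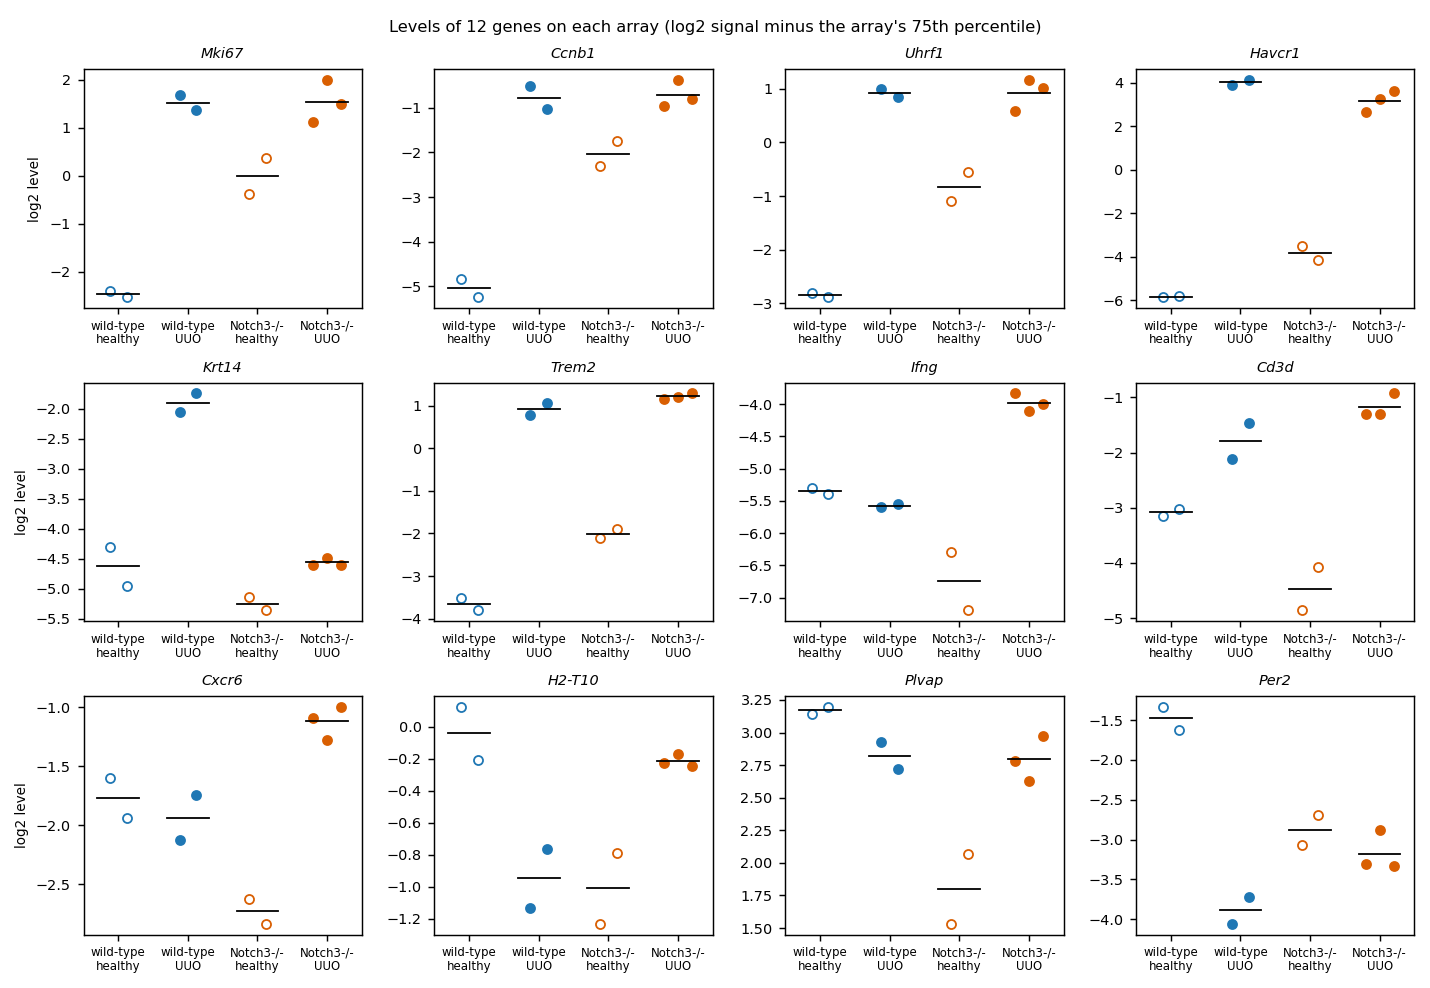
Levels of 12 genes named in the text on each array (y axis, log2 signal minus the array's 75th percentile; x axis, the 4 groups; open points healthy, filled points UUO, black lines group means). Mki67, Ccnb1, Uhrf1 and Trem2 differ between genotypes in healthy kidneys, Krt14 differs mainly after obstruction, and Ifng, Cd3d and Cxcr6 are lower in healthy and higher in UUO Notch3-/- kidneys.

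Endothelial genes were lower in healthy Notch3-/- kidneys and approached wild-type levels after obstruction. Genotype and scan campaign cannot be told apart in these level comparisons. Of 37 members 29 had a difference above 0, with a median of 0.49. At the unadjusted threshold 10 were higher (2.95% of all genes), with a smallest adjusted p of 0.39 in limma. With obstruction 13 rose in Notch3-/- (13.3% of all genes) against 4 in wild-type kidneys (14.1%). In healthy kidneys 33 of the 37 were below wild-type by their means (44.5% of all genes were), with a median of -0.83, and in UUO kidneys the median was -0.16. Plvap, a protein of the diaphragms of fenestrated capillaries, was at 3.14 and 3.20 in healthy and 2.92 and 2.72 in UUO wild-type kidneys, and at 1.53 and 2.07 in healthy and 2.78, 2.63 and 2.97 in UUO Notch3-/- kidneys. Only the healthy Notch3-/- arrays stood apart, and the difference was 1.34 ± 0.29 (adjusted p = 0.39 in limma). The receptor genes Tie1 and Tek of the same list gave 1.10 ± 0.28 and 1.10 ± 0.29. The endothelin receptor gene Ednrb, listed with blood pressure genes, gave 1.45 ± 0.33, but its other probe gave 0.15. Among podocyte and glomerular genes 15 of 22 lay above 0 (median 0.33), with Podxl, which coats podocytes and endothelium, at 1.31 ± 0.29. Without both arrays of high Xist the medians were 0.30 for endothelial and -0.00 for podocyte genes.

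Mural cell, fibroblast and myofibroblast genes, which include the cells best known for Notch3, were lower in Notch3-/- kidneys in both states, and the median difference of their responses was small. In healthy kidneys 21 of 24, Notch3 included, were below wild-type by their means (44.5% of all genes), with a median of -1.01. In UUO kidneys 23 of 24 were (50.5% of all genes), with a median of -0.83. Genotype and scan campaign cannot be told apart in these level comparisons. The difference of responses had a median of 0.21 with 15 above 0. Acta2, smooth muscle actin, was at 2.42 and 1.82 in healthy and 4.0 and 3.09 in UUO wild-type kidneys, and at 0.35 and 0.78 in healthy and 2.84, 2.18 and 2.46 in UUO Notch3-/- kidneys. It lay lower in Notch3-/- kidneys in each state without overlap, and the difference of responses was 0.50 ± 0.52. Pericyte gene Rgs5 and the fibroblast receptor Pdgfra gave 0.81 ± 0.64 and 0.91 ± 0.52. Cdh11, the member with the smallest p, went the other way at -1.15 ± 0.40, but its other probe gave 0.69. Kcnj8, Cspg4 and Abcc9 also lay below 0, at -0.38, -0.21 and -0.22. With replicate 1 as the only Notch3-/- UUO array, the median difference of responses of the whole list was -0.04.

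Matrix genes rose in both genotypes, 29 of 38 in wild-type (14.1% of all genes) and 28 in Notch3-/- kidneys (13.3%). Their difference of responses had a median of -0.19 with 22 below 0. Collagen genes Col1a1 and Col3a1 gave -0.78 ± 0.48 and -0.34 ± 0.74, against wild-type responses of 4.65 and 4.35. Fibronectin, Fn1, was at 1.05 and 0.50 in healthy and 5.05 and 4.42 in UUO wild-type kidneys, and at 0.88 and 1.28 in healthy and 3.58, 4.05 and 4.23 in UUO Notch3-/- kidneys, a difference of -1.09 ± 0.45. Its healthy arrays overlapped between genotypes and its UUO arrays did not. The fibrillar collagen gene Col5a2 gave -1.90 ± 0.40 (adjusted p = 0.38 in limma). Genes of TGF-beta and PDGF signalling had a median of -0.06, close to that of all genes, with none past the unadjusted threshold, and Tgfb1 itself gave 0.22 ± 0.34. Matrix remodelling enzymes gave a median of 0.16. Leaving out the arrays of high Xist, these medians were -0.42, -0.23 and -0.24.

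Macrophage markers rose in both genotypes, 27 of 33 in each (14.1% of all genes in wild-type and 13.3% in Notch3-/-), with a median difference of 0.12 and 18 above 0. Trem2, a lipid receptor of macrophages, differed from that median: it was at -3.51 and -3.81 in healthy and 0.77 and 1.07 in UUO wild-type kidneys, and at -2.12 and -1.89 in healthy and 1.16, 1.21 and 1.28 in UUO Notch3-/- kidneys. Notch3-/- arrays were higher in both states, by more in the healthy one, and the difference was -1.36 ± 0.23 (adjusted p = 0.31 in limma). Lgals3, or galectin-3, gave -1.27 ± 0.25. Arg1 differed after obstruction, with -3.01 and -2.72 in wild-type and -5.20, -5.45 and -4.15 in Notch3-/- UUO kidneys and no signal well above background in healthy ones, so that it rose at least 8.89-fold in wild-type and at least 2.15-fold in Notch3-/- kidneys. The monocyte chemokine Ccl2 had responses of 4.87 and 3.64, a difference of -1.23 ± 0.39, while the 29 chemokine genes together had a median of -0.11. Cytokines and their receptors gave a median of 0.04, complement and coagulation genes -0.00 and B and plasma cell markers -0.33. Leaving out the arrays of high Xist gave medians of 0.11 for macrophage markers, -0.29 for chemokines, -0.03 for cytokines, 0.03 for complement and -0.57 for B and plasma cell markers.

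Genes of tubular transport and metabolism fell in both genotypes. For proximal tubule genes the median response was -1.60 in wild-type and -1.57 in Notch3-/- kidneys, and the median difference was 0.10. Of the 46 members 31 and 34 fell (11.8% and 13.9% of all genes). Oxidative phosphorylation genes had medians of -1.05 and -1.06, with 36 and 41 of 41 falling, and fatty acid oxidation genes of -1.05 and -1.07. With all arrays the median difference was 0.08 for distal segments, -0.03 for oxidative phosphorylation, 0.14 for fatty acid oxidation and -0.05 for xenobiotic metabolism. These lists depended on which Notch3-/- UUO arrays were used. With replicate 1 alone the median difference was 0.79 for proximal tubule, 0.73 for distal segments, 0.40 for oxidative phosphorylation, 0.36 for fatty acid oxidation and 0.81 for xenobiotic metabolism, with 42 of 46, 30 of 36, 40 of 41, 36 of 40 and 28 of 42 members above 0. On that array the median proximal tubule gene lay at -0.79 relative to healthy wild-type kidneys, against -1.99 and -1.95 on replicates 2 and 3 and -1.94 and -1.37 on the wild-type UUO arrays. Single genes with a smaller fall in Notch3-/- kidneys included Pck1, the gluconeogenic enzyme, at 1.31 ± 0.33, and Acaa2, a thiolase of fatty acid oxidation, at 0.94 ± 0.21. Cholesterol and fatty acid synthesis genes had a median difference of -0.32, with 28 of 37 below 0 and 35 of 37 higher in healthy Notch3-/- kidneys by their means. Sqle, an enzyme of cholesterol synthesis, gave -1.21 ± 0.43. With replicate 1 alone that median was -0.12. Heat shock and unfolded protein response genes gave 0.16, with Hspa1a at 1.91 ± 0.35, and 0.20 on replicate 1 alone. Immediate early genes gave -0.20, but -0.69 with 22 of 25 below 0 on replicate 1 alone, 0.44 without wild-type UUO replicate 1, -0.71 without wild-type UUO replicate 2 and 0.08 without Notch3-/- UUO replicate 1, so they have no settled direction.

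**Figure D5:**
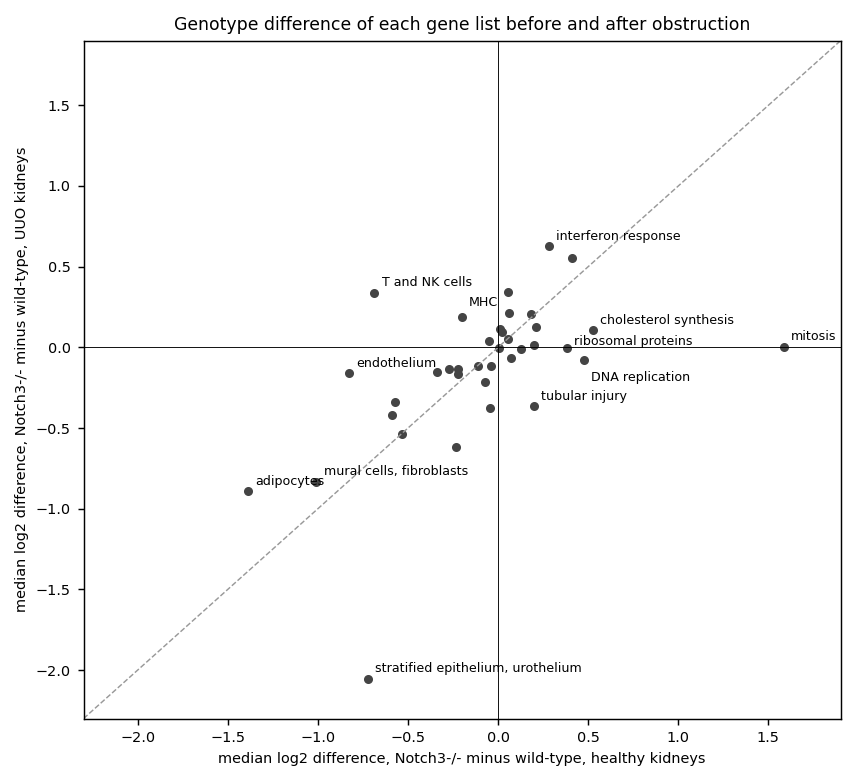
Median log2 difference between Notch3-/- and wild-type kidneys for each gene list, in healthy kidneys (x axis) and UUO kidneys (y axis), without the adrenal and sex-linked lists; lists on the dashed line have equal differences in both states. Mitosis lies far to the right at 1.58 and 0.00, T and NK cell markers lie at -0.69 and 0.34, and the mural cell list lies near the line at -1.01 and -0.83.

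Genes of the Notch pathway had small median differences of responses. Of 9 receptors and ligands, Notch3 included, 7 lay above 0, with a median of 0.19, and of 29 targets and modifiers 13 did, with a median of -0.02. Notch1 and Notch2 gave 1.64 ± 0.99 and -0.35 ± 0.17, Notch4 gave 0.23 ± 0.20 and the ligand Jag1 0.11 ± 0.38. For Notch1 the value rests on a single array, healthy wild-type replicate 1 at 0.94, while all others lay between -2.93 and -1.55. The target Hes1 gave -0.49 ± 0.55, Hey1 0.55 ± 0.34 and Heyl 0.57 ± 0.55, and the signs of Jag1, Hes1 and Heyl changed when single arrays or the arrays of high Xist were left out. Heyl was lower in Notch3-/- kidneys by 1.39 in the healthy and 0.82 in the UUO state. The ligand Dll1 fell in wild-type kidneys by 0.80, had a Notch3-/- response of -0.03 and gave 0.77 ± 0.23, and Lfng, which modifies Notch receptors with sugars, rose by 2.01 in Notch3-/- kidneys and gave 1.65 ± 0.45. Without both arrays of high Xist the medians were 0.19 and -0.20.

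The genes with the smallest p among those with a symbol, a signal well above background on every array of at least 1 group and pairwise responses without overlap did not pass the threshold either. All 15 such genes in each direction had an adjusted p from 0.22 to 0.28 in limma. The genotype difference was larger in healthy kidneys for 12 of the higher and 11 of the lower ones (53.4% of all genes). Both genotype differences enter the contrast that chose these genes, so the counts are not independent of that choice. Of the lower ones 4 were on the mitosis list, and Cenpm, a centromere protein, Cdkn3, a phosphatase of cyclin-dependent kinases, and Pbk, a mitotic kinase, were at -3.43 ± 0.42, -3.21 ± 0.49 and -3.44 ± 0.52. Cenpm and Cdkn3 were not well above background on any healthy wild-type array, and Pbk was on 1 of 2. Only 3 of the lower and 5 of the higher ones were well above background on all 9 arrays. Per2, a repressor of the circadian clock, was among the latter, at -1.33 and -1.62 in healthy and -4.06 and -3.72 in UUO wild-type kidneys, and at -3.07 and -2.69 in healthy and -3.31, -2.88 and -3.34 in UUO Notch3-/- kidneys. It fell with obstruction in wild-type kidneys by 2.41, whereas its Notch3-/- arrays overlapped between the states, and the difference was 2.12 ± 0.32 (adjusted p = 0.26 in limma). Coagulation factor gene F5 gave 1.89 ± 0.27, Nap1l5 2.50 ± 0.33 and Shank3, a scaffold protein gene, 1.36 ± 0.23.

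Both responses were called in opposite directions for 11 genes and unnamed transcripts (0.0461% of those tested), 6 of them with a symbol. H2-T10, a nonclassical class I gene, fell in wild-type kidneys, from 0.13 and -0.21 to -1.13 and -0.76, and rose in Notch3-/- kidneys, from -1.23 and -0.79 to -0.22, -0.17 and -0.25, a difference of 1.70 ± 0.29 (adjusted p = 0.28 in limma). Colec11, a collectin of the complement system, fell by 1.11 and rose by 0.92, and Shank3 fell by 0.62 and rose by 0.74. Ptcra rose by 1.77 in wild-type kidneys and fell by 1.26 in Notch3-/- kidneys, and Fam186b and Gm773 complete the set, but each of these last 3 was not well above background on any array of 2 groups, so their sizes are uncertain.

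Markers of other tissues moved with these comparisons on some arrays of a group. Adrenal cortex markers had a median difference of 2.61 with 14 of 15 above 0, and of -0.79 with 2 of 15 above 0 without both arrays of high Xist. Adipocyte markers had a median of 0.48 with all arrays and of -1.96 without those 2. Red blood cell and platelet genes gave 0.10, and 0.02 without those 2 arrays. The part of adrenal, fat or urothelial tissue in any other list was not tested.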

How the data were processed

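Cortex RNA of 9 kidneys was hybridised to one-colour (Cy3) Agilent arrays. Per the file headers, the authors' scanner files hold processed spot intensities from Feature Extraction 10.7.3.1, background-subtracted, on a grid of mm9, whereas version 10.5 stands in the submitters' processing notes. The deposited value table holds log2 values, with array medians of 7.02 to 7.05 and correlations of 0.971 to 0.986 with the scanner intensities over 39429 probes, and served as an alternative. Its normalisation is not stated in these sources.

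Processed intensities were scaled to each array's 75th percentile and taken as log2. A probe was kept where at least 2 of the 9 arrays had it well above background (29336 of 39429), spots flagged as outliers were left out, and the brightest probe stood for a gene. A symbol was found for 27234 probes and 12195 stayed unnamed, which gave 23878 genes and unnamed transcripts, 16603 with a symbol. limma 3.58.1 in R 4.3.3 fitted the 4 group means to all 9 arrays (5 residual degrees of freedom) with Benjamini-Hochberg adjustment at 0.05 over all features, and the steps were tested on simulated data. The number of arrays limits the precision. A group that was not well above background on any of its arrays has only a bound: "at least" folds compare the bright group's mean with the lowest signal well above background on the dim group's arrays, or with the dim signal itself where that is higher.

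Named genes are, first, those with the smallest p in each direction (15, since none passed) that had a symbol, were well above background on every array of at least 1 group and had pairwise responses without overlap. To these come up to 4 members of each of the 39 lists with the smallest p, genes called in opposite directions, and a fixed set of Notch, matrix, injury and proliferation genes. Further list members, such as Aurka, Cdc20, Ccnb2, Cd3d, Cd3e, Cd3g, Tbx21, Il2rb, Tek and S100a9, were named after their values were seen. The members and lists were chosen with earlier results of these data known. Promoter sequences and coordinates come from RefSeq (GRCm38.p6) and were matched by symbol. Alternatives covered normalisation, background correction, the authors' values, scaling, filters, probe summary, moderation, array weights, slide, replicate number, the arrays of high Xist, and leaving out each array. Some members of these lists are not reported here.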

Additional observations from a re-analysis of the deposited data

Results flagged for a closer look

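For 6 genes with a symbol the obstruction responses of both genotypes were called in opposite directions, and every pairwise response of one genotype was opposite in sign to every one of the other. The differences of responses were 2.03 for Colec11, 3.92 for Fam186b, -5.27 for Gm773, 1.70 for H2-T10, -3.03 for Ptcra and 1.36 for Shank3. The difference itself was tested with limma and passed for none of these 6 after adjustment. Colec11, H2-T10 and Shank3 were well above background on all 9 arrays, while Fam186b, Gm773 and Ptcra were not well above background on any array of 2 groups.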

How the results depend on the processing

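No gene passed the threshold in any setting except 3. Quantile normalization gave 2 genes, leaving out Notch3-/- UUO replicate 1 gave 54 (44 higher and 10 lower) and leaving out healthy Notch3-/- replicate 1 gave 3, so that leaving out single arrays gave 0 to 54; the cause was not tested. The median of the mitosis genes was -0.98 after normexp background correction, -1.08 in the authors' values and -2.09 to -1.37 with single arrays left out. The median of T and NK cell markers was 0.19 after normexp, 0.75 in the authors' values and 0.97 to 1.32 with single arrays left out. Both medians kept their sign in all these settings. Among named genes with an unadjusted p under 0.05, 7 values reversed: Rps14 was at 0.029 with quantile normalization and 0.10 in the authors' values, Yy2 at -0.10, Ccl24 at -0.54 and Eda2r at -0.28 after normexp, and Cdh11 at 0.27 and Mmp9 at 0.011 in the authors' values; the cause was not tested. A further 36 values of named genes above that p changed sign, among them values of Notch3 (-0.93 to 0.33 over the settings), Col3a1 (-0.97 to 0.30) and Tgfb1 (-0.06 to 0.46). The median of all genes was -0.07, against -0.01 with quantile normalization and -0.14 after normexp.

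Arrays with the same replicate number had correlations of -0.21 to 0.157 between their deviations from the group means. In a group of 2 arrays these deviations mirror each other. The values therefore cannot tell whether arrays of the same number came from the same animal. With the replicate block 0 genes passed, and the medians were -1.68 for mitosis and 1.14 for T and NK cell markers. Notch3-/- UUO replicate 3 has no partner, so the estimates of this fit rest on the other arrays. Its SE and p-values differ from those of a fit that leaves out replicate 3, because it holds a further term for replicate 2. Where 1 array of a group was left, it was assumed to vary like the other groups, and genes with no value left in a group dropped out. Dim probes limit the sizes for genes near background.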
